A study of Rattus norvegicus with 8 samples.

Results

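The genes Bdnf, Ntf3, Ntrk2, Ntrk3, Ngfr and Sort1 were followed in the neural lobe of the pituitary of male Sprague Dawley rats aged 35 days or 125 days. They are 6 of the 33294 genes in the deposited table, taken by symbol, and all 6 were measured well enough to be tested. Each age had 4 libraries. Lobes were taken after perfusion with buffered saline under isoflurane and flash frozen, and libraries were made from poly(A) RNA. No genotype or drug treatment was labelled, and the labels call 35 days the control age. Samples are numbered within an age, and nothing says that each came from its own animal. The p-values then speak only of how far these samples differ, and some of that spread may be technical.

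Neurotrophins are secreted growth factors that are made as longer precursors. Brain-derived neurotrophic factor (Bdnf) acts mainly through the receptor tyrosine kinase TrkB (Ntrk2) and neurotrophin-3 (Ntf3) mainly through TrkC (Ntrk3). All neurotrophins bind the p75 receptor (Ngfr), which forms a complex with sortilin (Sort1) that takes up uncleaved precursors. Sortilin also sorts cargo, including the BDNF precursor, inside the cell. Both Trk genes give full-length kinases and truncated forms without a kinase, the truncated TrkB being common in glia. The values here are sums over all transcripts of a gene and do not separate these forms. In the neural lobe, nerve endings that release vasopressin and oxytocin lie among pituicytes, the resident glia, and fenestrated capillaries.

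Bdnf is transcribed from several alternative starts, each with its own promoter and first exon spliced to a shared coding exon. The RefSeq promoter table of the assembly GRCr8 held 6 starts for Bdnf, 3 for Ntf3 and 1 for Sort1, so 3 of the 6 genes were matched. A pair of Bdnf promoters is shown because Bdnf changed most of the 6 genes and its promoters are known to respond differently to neuronal activity. Each is the 250 bases before the start, 5′ to 3′ on the plus strand, for start 1 (chr3:116619383-116619632) and start 4 (chr3:116637608-116637857). Capitals mark the core TGACG of the cyclic AMP response element, searched on both strands (CGTCA on the strand shown).
Bdnf start 1: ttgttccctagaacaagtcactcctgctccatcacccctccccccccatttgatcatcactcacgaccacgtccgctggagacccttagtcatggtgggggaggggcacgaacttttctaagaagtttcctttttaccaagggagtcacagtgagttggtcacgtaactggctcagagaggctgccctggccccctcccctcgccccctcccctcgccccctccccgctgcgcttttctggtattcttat
Bdnf start 4: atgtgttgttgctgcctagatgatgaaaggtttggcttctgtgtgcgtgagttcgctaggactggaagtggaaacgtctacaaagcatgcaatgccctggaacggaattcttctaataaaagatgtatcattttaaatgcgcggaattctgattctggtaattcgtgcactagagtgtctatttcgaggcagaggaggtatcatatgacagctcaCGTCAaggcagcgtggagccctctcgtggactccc
Of the 6 Bdnf windows, 1 held that core, that of start 4, where its first base lay 35 bases before the start. The core was in 18.2% of all 33469 windows of this length in the table, so 1 of 6 is close to that share. The windows of starts 5 and 6 overlap, so the 6 are not all separate sequences. The full element TGACGTCA (in 1.59% of windows) and the E-box CACGTG (in 5.59%) were in none of the Bdnf, Ntf3 or Sort1 windows, on either strand. A match describes these letters only, and the expression table does not give which start was used.

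Values are depth-normalized counts, that is, gene read counts over the size factor of the library, and the libraries held 28429133 to 58696254 reads as recovered from them. Pomc, expressed by endocrine cells of the pituitary, took 6.44, 5.65, 10.2 and 6.78% of the values in 35-day replicates 1 to 4. It took 10.1 to 14.3% of the 125-day values. Which lobe the Pomc reads came from was not tested. Growth hormone (Gh1), of the anterior lobe, took 2.68% of 35-day replicate 3 and at most 0.358% of any other library, so that library stands apart. The pituicyte factor Rax, at 2013 ± 413 and 1895 ± 528 depth-normalized counts (SD, n = 4), and the vasopressin gene Avp, at 2604 ± 446 and 2261 ± 676, were present at both ages. Of the 17919 genes with enough signal to be tested (a value of 10 or more in 4 libraries), 17.7% passed the threshold of an adjusted p below 0.05 in limma, 8.85% higher and 8.87% lower at 125 days.

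Bdnf and Sort1 were higher and Ntrk2 and Ntrk3 lower at 125 days. These are 4 of the 6 genes (2 in each direction), against 17.7% of all genes tested. Ntf3 and Ngfr did not pass. The largest change was that of Bdnf, at about 3.42 times its 35-day mean, followed by Ntrk3, whose 35-day mean was 2.48 times that at 125 days. Leaving out 35-day replicate 3 also gave 4 of 6, against 30.7% of all genes. A share of 50% of the 6 was called with no filter (3064 of 26462 genes) or no trend (2946 of 17919). The same share was called with total read scaling (3138 of 17883), edgeR (3170 of 17919) and the anterior lobe covariate (2982 of 17919). Leaving out 35-day replicate 2 (2154 of 17919) or 4 (2931), or 125-day replicate 2 (2856), gave 50% too. Bdnf and Ntrk3 alone, 2 of 6, were called with the intermediate lobe level as a covariate (3.81% of all genes), with 35-day replicate 1 left out (13.5%), and with 125-day replicate 1 (11%), 3 (10.9%) or 4 (10.6%) left out.

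**Figure D1:**
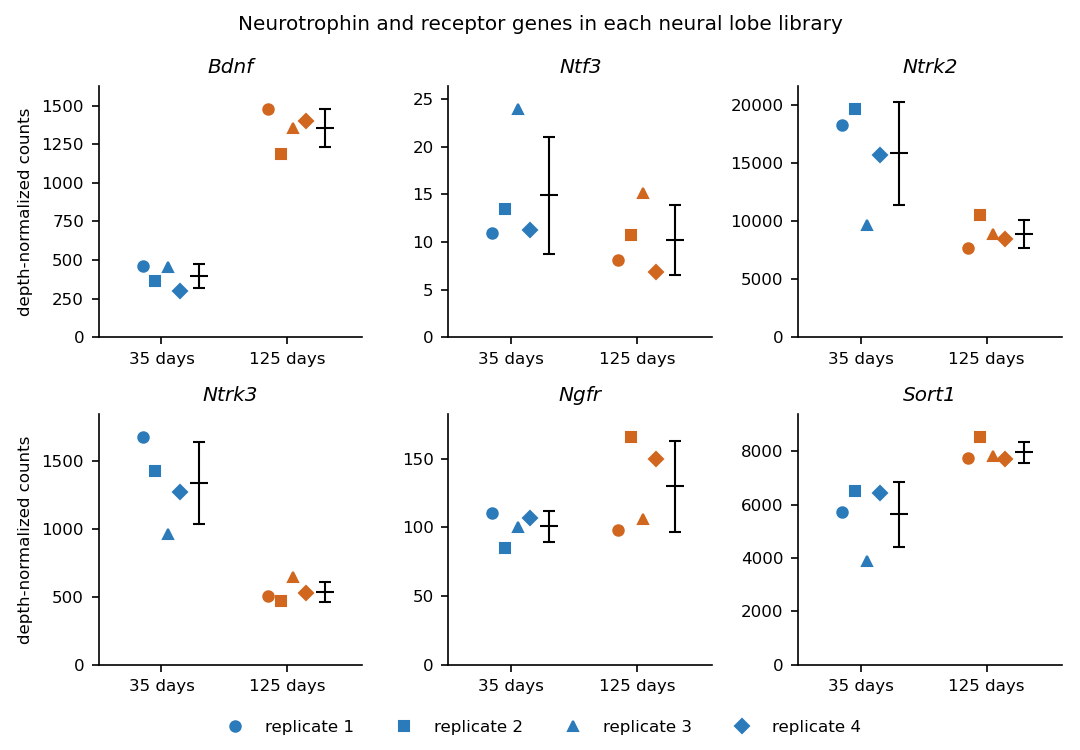
Depth-normalized counts (vertical axes, from 0, a scale of its own for each gene) of the 6 genes at 35 days (blue) and 125 days (orange). Each symbol is 1 library, its shape gives the replicate number, and the bar beside each group is the mean ± SD (n = 4); the ages are separate for Bdnf, Ntrk3 and Sort1, and for Ntrk2 the triangle of 35-day replicate 3, at 9653, lies among the 125-day libraries.

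The ligand gene Bdnf was at 464, 366, 454 and 301 depth-normalized counts in 35-day replicates 1 to 4, and at 1480, 1188, 1357 and 1402 in those of 125 days. Every 125-day library was above every 35-day library, and 35-day replicate 3 was within the range of its group. The mean went from 396 ± 77.4 to 1357 ± 124 (SD, n = 4), a log2 change of 1.79 (SE 0.15, 95% interval 1.46 to 2.12, limma adjusted p = 5.40e-05). Of the 17919 genes tested, 99.2% had a lower log2 change than Bdnf. The coefficient of variation was 19.5% at 35 days and 9.11% at 125 days. Bdnf was called in all 14 alternative fits, with a log2 change of 1.86 with the anterior lobe covariate and 1.90 with the intermediate lobe covariate (limma adjusted p = 3.09e-04 and 0.00389).

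Ntf3, the ligand of TrkC, was at 10.96, 13.4, 24.0 and 11.3 at 35 days and 8.13, 10.8, 15.1 and 6.84 at 125 days. These values rest on 7 to 22 reads a library (64 in all at 35 days and 38 at 125 days), and the ages overlapped. The log2 change was -0.49 (SE 0.35, limma adjusted p = 0.379), with a 95% interval from -1.28 to 0.30, which includes 0. Neurotrophin-4 (Ntf4), the second TrkB ligand, was at 15.8 to 36.0 and 18.3 to 33.2 (log2 change 0.07, SE 0.30, 95% interval -0.59 to 0.73, limma adjusted p = 0.904). Of Bdnf, Ntf3 and Ntf4, Bdnf alone passed the test, and whether its change differed from theirs was not tested.

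Ntrk3, encoding TrkC, was at 1684, 1433, 964 and 1278 at 35 days and 510, 470, 646 and 534 at 125 days. Every 125-day library was below every 35-day library, and the lowest of the 35-day group was replicate 3. Ntrk3 fell by 1.29 on the log2 scale (SE 0.17, 95% interval -1.67 to -0.91, limma adjusted p = 7.96e-04). Its means were 1340 ± 301 and 539.8 ± 75.2 (SD, n = 4), and 3.10% of the genes tested had a lower log2 change. Ntrk3 too was called in all 14 alternative fits, with -1.53 and -1.60 with the anterior and intermediate lobe covariates (limma adjusted p = 8.72e-04 and 0.00905).

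Ntrk2, encoding TrkB, was at 18316, 19674, 9653 and 15722 at 35 days and 7659, 10561, 8884 and 8450 at 125 days. Replicates 1, 2 and 4 of 35 days lay above all 125-day libraries, while 35-day replicate 3 lay inside the 125-day range. The log2 change was -0.79 (SE 0.21, 95% interval -1.26 to -0.33, limma adjusted p = 0.0272), from 15841 ± 4439 to 8888 ± 1225. With that library left out it was -1.01 (SE 0.11, limma adjusted p = 2.65e-04). Dropping 35-day replicate 1, 2 or 4, or 125-day replicate 1, 3 or 4, ended the call (limma adjusted p from 0.0576 to 0.0850). With the level of anterior lobe markers as a covariate the log2 change was -1.21 (SE 0.19, adjusted p = 0.00274), and with that of intermediate lobe markers, which is separate between the ages, -1.09 (SE 0.32, adjusted p = 0.112).

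In bulk tissue, fewer cells of a type and less RNA per cell cannot be told apart, and marker lists of several cell types moved with age as well. No marker of any list was at 0 in all libraries. Among all genes tested, 8.85% were called higher and 8.87% lower in limma. Of 18 pituicyte markers, 7 fell and 1 rose in limma, and their summed values were 198824 to 252816 at 35 days and 115757 to 174508 at 125 days. Their mean log2 level ranged from 11.69 to 12.03 in the 35-day group and from 10.97 to 11.52 in the 125-day group, a difference of -0.66 (two-sided exact permutation test, p = 0.0286, the smallest that 4 against 4 allows, and 0.0429 adjusted over 12 marker lists). Of 14 endothelial markers 10 fell (summed values 29550 to 41043 and 18210 to 34949), of 12 mural cell markers 9 fell and 1 rose (12997 to 22056 and 11662 to 16664), and of 13 fibroblast markers 9 fell and 1 rose (86953 to 116411 and 35118 to 53733). The mean levels of these 3 lists differed by -0.68, -0.73 and -0.84, and that of proliferation genes, all 14 of which fell (summed values 11396 to 12070 and 1920 to 2193), by -2.56, each with the same permutation p. Of 11 oligodendrocyte markers 2 fell (summed values 10611 to 14254 and 8544 to 10981), and their level differed by -0.78, again with that p. Their median log2 change was -0.39, and 1 of them is Mag (-2.85), with a 125-day mean of 2.04. Pdgfra is in both this list and the fibroblast list. The level of 16 mast cell, lymphocyte and granulocyte markers differed by -1.12 (7 of 13 tested lower and 2 higher, summed values 3914 to 5847 and 3895 to 5241), with the same p. Neuron markers (3 of 13 tested higher, 2 lower, summed values 28649 to 30981 and 36934 to 41228, level difference -0.07) and microglia markers (1 of 13 higher, 4 lower, summed values 16954 to 19783 and 13241 to 19185, level difference -0.20) had exact permutation adjusted p of 0.436 and 0.309. Leaving out 1 library moved several of these counts, as it moved the share of all genes called (30.7% with 35-day replicate 3 dropped, 13.5% with 35-day replicate 1 dropped and 10.6 to 11% with 125-day replicate 1, 3 or 4 dropped): 12 pituicyte markers fell when 35-day replicate 3 was dropped, and 4 to 6 endothelial and 4 to 5 mural markers fell when any library other than 35-day replicate 3 or 125-day replicate 2 was dropped. The neuron list gave 8 calls with 35-day replicate 3 dropped and 1 to 3 with any library other than that and 35-day replicate 1 dropped, and the microglia list 3 with replicate 1 of either age dropped. The oligodendrocyte list gave 4 calls with 35-day replicate 3 dropped and 1 with 125-day replicate 3 or 4 dropped. The part of these cell types in the falls of Ntrk2 and Ntrk3 was not tested.

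Ngfr, encoding the p75 receptor, was at 111, 84.7, 100.3 and 107 at 35 days and 98.5, 166, 106 and 150 at 125 days. Replicates 2 and 4 of 125 days lay above all other libraries, and the other two 125-day libraries lay inside the 35-day range. The log2 change was 0.34 (SE 0.20, 95% interval -0.11 to 0.78, limma adjusted p = 0.280). Schwann cells are a known site of p75 expression, and of 14 Schwann cell markers 2 rose and 1 fell (summed values 34493 to 78363 and 34415 to 50075), with a mean level of 7.96 to 8.49 at 35 days and 7.92 to 8.41 at 125 days (difference -0.01, exact permutation p = 0.943). That list gave 5 calls with 35-day replicate 3 dropped (30.7% of all genes were then called) and 1 with 35-day replicate 4 or a 125-day library dropped.

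Sort1, encoding sortilin, was at 5734, 6497, 3887 and 6424 at 35 days and 7749, 8542, 7803 and 7719 at 125 days. The ages did not overlap, as for Bdnf and Ntrk3, which makes 3 of the 6 genes against 24.9% of all genes tested. Sort1 rose 0.52 on the log2 scale (SE 0.16, 95% interval 0.18 to 0.87, limma adjusted p = 0.0434), from 5635 ± 1215 to 7953 ± 394. Dropping 35-day replicate 3, the lowest, gave 0.36 (SE 0.07, limma adjusted p = 0.00448). Sort1 was not called with the anterior lobe level in the model (0.28, SE 0.17, limma adjusted p = 0.290), with the intermediate lobe covariate (0.18, SE 0.21, adjusted p = 0.656), with scaling to total reads (0.46, SE 0.18, adjusted p = 0.104), by edgeR (0.49, adjusted p = 0.0524), or after dropping 35-day replicate 1 or a 125-day library (limma adjusted p from 0.0797 to 0.0964). The 14 anterior lobe markers summed to 26140 to 1427908 at 35 days, the highest in replicate 3, and to 10750 to 69373 at 125 days, with 5 lower and 0 higher in limma. Their mean log2 level was 12.8 in that library, 8.47 to 10.9 in the other 35-day libraries and 7.18 to 9.04 at 125 days (exact permutation p = 0.114). The 8 intermediate lobe markers summed to 2028859 to 3774007 at 35 days and 3635333 to 5362871 at 125 days, with 3 higher and 1 lower. Their mean level was 12.25 to 12.68 and 12.73 to 13.04, with no overlap between the ages. The level difference was 0.37 (exact permutation p = 0.0286, 0.0429 adjusted). Of the 35-day libraries, replicate 3 had the highest sum of these markers and the lowest level. The anterior lobe list gave 11 calls with 35-day replicate 1 dropped (13.5% of all genes). It gave 3 with 35-day replicate 2 or 125-day replicate 3 (10.9% of all genes) dropped. The intermediate lobe list gave 1 to 2 with a 125-day library dropped. The part of these lobes in the Sort1 change was not tested beyond these fits.

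Sortilin belongs to a family of 5 sorting receptors with a VPS10 domain, and none of the other 4 was called higher. Sorl1 was at 7541 ± 1763 and 4965 ± 804 (SD, n = 4), a log2 change of -0.59 (SE 0.18, limma adjusted p = 0.0458). Its ages overlapped. Sorl1 stayed called only when the library dropped was 35-day replicate 3 or 125-day replicate 2 (the other 6 gave limma adjusted p from 0.0847 to 0.129). Sorcs1 (2016 ± 688 and 1521 ± 346), Sorcs2 (809.5 ± 166 and 674 ± 124) and Sorcs3 (285 ± 78.8 and 288 ± 62.3) had log2 changes of -0.35, -0.26 and 0.03, with limma adjusted p of 0.427, 0.366 and 0.938. Sorcs3 was below 0 with total read scaling and with 3 of the libraries left out in turn. When 35-day replicate 3 was dropped, Sorl1, Sorcs1 and Sorcs2 were all called lower and Sort1 higher.

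**Figure D2:**
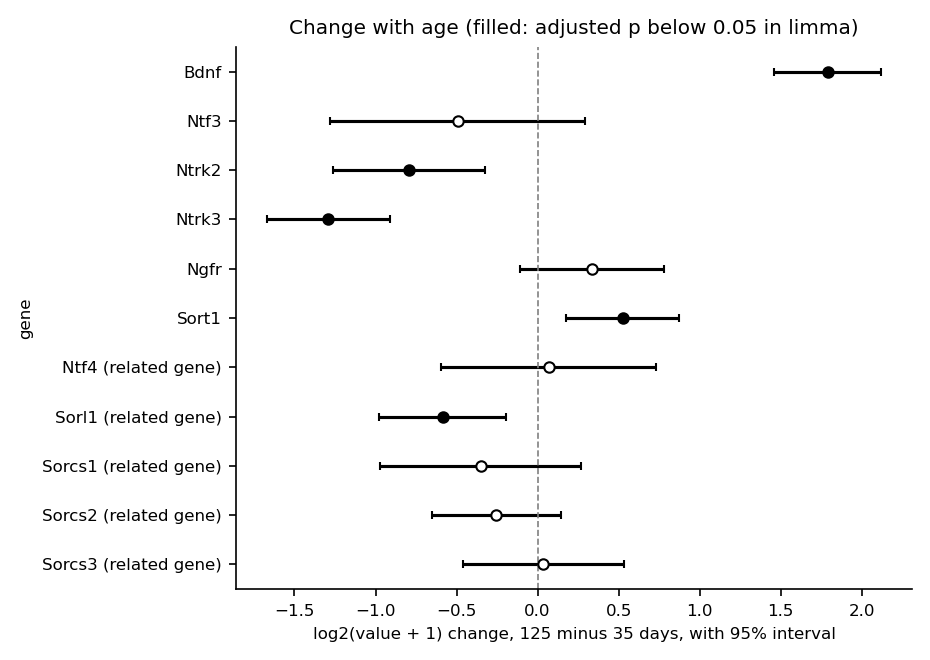
Change with age on the log2(value + 1) scale (horizontal axis, 125 minus 35 days) for the 6 genes and 5 related genes, with 95% intervals from limma. Filled points passed an adjusted p of 0.05; Bdnf (1.79) and Sort1 (0.52) lie to the right of 0 and Ntrk3 (-1.29), Ntrk2 (-0.79) and Sorl1 (-0.59) to the left, and the interval of each open point includes 0.

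Since genes differ in length, levels were not compared between genes, but the log2 difference between 2 genes of 1 library can be compared across libraries. These pairs were chosen with the changes above known, so the values are a description with no test. The difference Bdnf minus Ntrk2 was -5.30, -5.75, -4.41 and -5.70 at 35 days and -2.37, -3.15, -2.71 and -2.59 at 125 days. The ligand gene thus gained 2.58 on the log2 scale on its receptor gene, a 5.99-fold change in their ratio, and the ages were separate also for 35-day replicate 3. Bdnf minus Ngfr changed by 1.45 and Bdnf minus Sort1 by 1.27, both with separate ages. Ntf3 minus Ntrk3 was -6.44 ± 0.81 at 35 days and -5.64 ± 0.38 at 125 days (SD, n = 4), and there the ages overlapped. Ntrk3 minus Ntrk2 was -3.44, -3.78, -3.32 and -3.62 at 35 days and -3.91, -4.49, -3.78 and -3.98 at 125 days, a change of -0.50. The highest 125-day library and the lowest 35-day library of that pair were apart in the third decimal only.

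**Figure D3:**
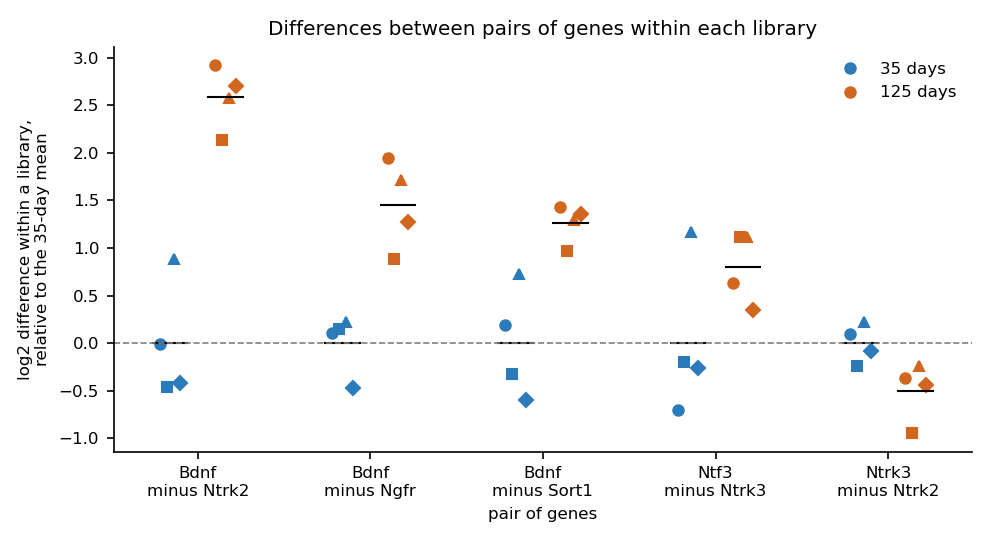
Log2 difference between 2 genes within each library, relative to the 35-day mean of that pair (vertical axis), for 5 pairs (horizontal axis). Each symbol is 1 library (blue 35 days, orange 125 days, circle, square, triangle and diamond for replicates 1 to 4) and short lines are means; Bdnf minus Ntrk2 lies 2.58 higher on average at 125 days, and Ntf3 minus Ntrk3 overlaps between ages.

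Profiles were compared by the root mean square difference of log2 values over the 8 libraries, each gene centred on its own mean, among 13540 other genes with a mean of at least 50. Nearest to Bdnf were Corin (0.184), a membrane protease, Nol3 (0.203), an inhibitor of apoptosis, and Mocos (0.213), a molybdenum cofactor sulfurase. Corin went from 41.7 ± 9.76 to 165 ± 27.3. Nearest to Ntrk3 were Gas2l3 (0.141), a cytoskeleton linker of dividing cells, the kinetochore gene Knl1 (0.157) and the metalloproteinase gene Adamts7 (0.162). Gas2l3 went from 462 ± 95.6 to 173 ± 17.7. Nearest to Ntrk2 were Gpr161 (0.0829), Arhgap24 (0.0872) and Piezo2 (0.108), and to Sort1 Zbtb4 (0.0594), Mpdz (0.0595) and Tns2 (0.0676). All 12 were chosen as the nearest of many, so their likeness is a description over 8 libraries of 2 ages.

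The other genes of the pathway were counted in 9 lists, ordered from the precursor to the response. Of 12 tested genes for cleavage of precursors and its inhibitors, 1 rose and 1 fell in limma, or 16.7%, near the 17.7% of all genes tested (median log2 change -0.08, against 0.01 over all genes tested). Serpini1, encoding neuroserpin, an inhibitor of tissue plasminogen activator, went from 4796 ± 1899 to 8110 ± 1049 (log2 change 0.82, limma adjusted p = 0.0282), with overlapping ages. It missed the threshold when 35-day replicate 1, 2 or 4 or 125-day replicate 1, 3 or 4 was dropped. The matrix metalloproteinase gene Mmp2 fell by 1.44 (adjusted p = 0.00112). The list gave 5 calls with 35-day replicate 3 dropped (30.7% of all genes were then called) and 4 with 125-day replicate 2 dropped. It gave 1 with 35-day replicate 2 or 4 or 125-day replicate 1 (11% of all genes) or 4 (10.6%) dropped. Among 17 genes for transport and release of neurotrophin cargo, 4 rose and 0 fell at the threshold (median 0.38), or 23.5% against 17.7% of all genes tested. The log2 change was above 0 for 14 of the 17 genes and below 0 for 3. The lowest was that of Syt6, named after its value was seen. Syt6 was at 165 ± 177 and 15.9 ± 13.5 and was not called (log2 change -2.93, limma adjusted p = 0.0539). With the anterior lobe covariate the lowest log2 change of the list was -0.61. At an unadjusted p below 0.05 without a covariate, 8 were higher and 1 lower. The share of all genes at that looser threshold is not given here, so this count has no background to be read against. The edgeR, DESeq2 and replicate block fits and the fit with 35-day replicate 1 dropped each called 1 gene lower. Library weights called 10 higher and 2 lower, where 7892 of 17919 genes were called. The 4 that rose were Syt4, a synaptotagmin of BDNF-containing vesicles (16213 ± 3018 to 40767 ± 5623), Cadps, which primes dense-core vesicles (log2 change 0.67), Hap1, a transport adaptor of the BDNF precursor (0.53), and the vesicle GTPase gene Rab3a (0.44), the last named after its value was seen. Of the 17, 9 rose with 35-day replicate 3 dropped, where 30.7% of all genes were called in either direction. With 125-day replicate 3 dropped 2 rose, where 10.9% of all genes were called. These transport genes are also expressed in pituitary endocrine cells. Pomc took 5.65 to 10.2% at 35 days, the highest in replicate 3, and 10.1 to 14.3% at 125 days. What endocrine cells added to these counts was not tested.

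Below the receptors few genes passed. Of 25 Trk adaptors Shc2 rose (log2 change 0.77, limma adjusted p = 0.00523) and Shc4 fell (-0.71, adjusted p = 0.0275), of 15 Ras and ERK kinase genes Nras fell (-0.28, adjusted p = 0.0359), and of 14 PI3K and Akt genes none passed. These shares, 8% of the adaptors, 6.67% of the Ras and ERK genes and 0% of the PI3K and Akt genes, were below the 17.7% of all genes tested. At an unadjusted p below 0.05, limma gave 0 higher and 1 lower of the 14 PI3K and Akt genes. The share of all genes at that unadjusted threshold is not given here. At an adjusted p below 0.05 edgeR (3170 of 17919 genes called) and DESeq2 (4196 of 17911) gave 0. The Nras call was lost in 12 of the other fits, among them those with any library other than 35-day replicate 3 dropped. Dropping that library gave 6, 2 and 3 calls in the 3 lists, where 30.7% of all genes were called. The adaptors gave 1 call with 35-day replicate 1 or 125-day replicate 2, 3 or 4 dropped.

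Among 21 genes of p75 partners and p75 cleavage, 2 rose and 3 fell (median 0.01), or 23.8%, near the 17.7% of all genes tested. Lingo1, a co-receptor of p75 in the receptor complex for myelin inhibitors, rose 1.03 on the log2 scale (limma adjusted p = 0.00878) and Tnfrsf19, a related receptor, rose 0.86 (adjusted p = 0.00555). The myelin inhibitor genes Mag (adjusted p = 0.00582) and Omg (119 ± 72.1 to 48.6 ± 9.02, adjusted p = 0.0464) fell, and Ndn, encoding necdin, which binds p75, fell by 0.64 (adjusted p = 0.0102). Mag was at 21.9 ± 16.6 at 35 days and 2.04 ± 1.91 at 125 days, near the limit of 3 reads, so its log2 change of -2.85 depends on the pseudocount. With the anterior lobe level in the model Ndn missed the threshold (log2 change -0.41, limma adjusted p = 0.0719). Omg missed it in that fit (log2 change -0.39, limma adjusted p = 0.380) and when 35-day replicate 2 or a 125-day library was dropped. The list gave 9 calls with 35-day replicate 3 dropped, where 30.7% of all genes were called.

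Genes known to respond to Trk signalling changed most often of the 9 lists, 17 of 25 in limma, but in both directions, 9 higher and 8 lower, with a median of 0.12. That is 68% of the list against 17.7% of all genes tested. Dropping 125-day replicate 1, 3 or 4 gave 10, 10 and 11 calls (11%, 10.9% and 10.6% of all genes). Dropping 35-day replicate 3 gave 18 (30.7% of all genes). Among the immediate early genes that rose were Fosb (193 ± 65.1 to 1175 ± 439, log2 change 2.62), the nuclear receptor gene Nr4a2 (1305 ± 556 to 5593 ± 1334, log2 change 2.17, limma adjusted p = 8.50e-04) and the phosphatase gene Dusp1 (2.32, adjusted p = 0.00232). Genes that fell included Etv4, an ETS factor downstream of ERK (342 ± 67.8 to 108 ± 19.8, log2 change -1.65), the pentraxin gene Nptx2 (-1.90, adjusted p = 0.00102) and the feedback inhibitor gene Spry1 (-0.57, adjusted p = 0.00568). Many signals other than neurotrophins induce these genes, and which signal moved them was not tested.

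Of 23 genes for factors of the Bdnf promoters and kinases upstream of them, 2 rose and 2 fell (median 0.05), or 17.4%, near the 17.7% of all genes tested. Crem, a factor that binds the cyclic AMP response element, went from 3095 ± 800.3 to 6627 ± 832 (limma adjusted p = 0.00389). It missed the threshold with the intermediate lobe covariate (limma adjusted p = 0.0792). Whether Crem acted on Bdnf in these samples was not tested. The histone deacetylase gene Hdac5 rose 0.29 (adjusted p = 0.0478), and Camkk2, a kinase of the calcium pathway (-0.48, adjusted p = 0.0201), and Nfatc4 (-0.58, adjusted p = 0.0320) fell. Hdac5 missed the threshold with the replicate block (limma adjusted p = 0.106) and in 7 other alternative fits. With the anterior lobe level in the model Camkk2 and Nfatc4 missed it too (limma adjusted p = 0.105 and 0.134). Crem alone was called with 35-day replicate 2 or 125-day replicate 1, 3 or 4 dropped (10.6 to 11% of all genes for the last 3). With 35-day replicate 3 dropped 10 of the 23 were called, against 30.7% of all genes. In the GDNF family, a separate family of trophic factors, the receptor genes Gfra4 (log2 change -2.28, limma adjusted p = 4.00e-05) and Ret (-0.97, adjusted p = 0.0495) fell. These are 2 of 11 genes (median -0.18), or 18.2%, near the 17.7% of all genes tested. The Ret ages overlapped and its log2 change was -0.37 (limma adjusted p = 0.395) with the anterior lobe level in the model. With any library other than 35-day replicate 1 or 125-day replicate 3 dropped, Gfra4 was the 1 gene of this list called.

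**Figure D4:**
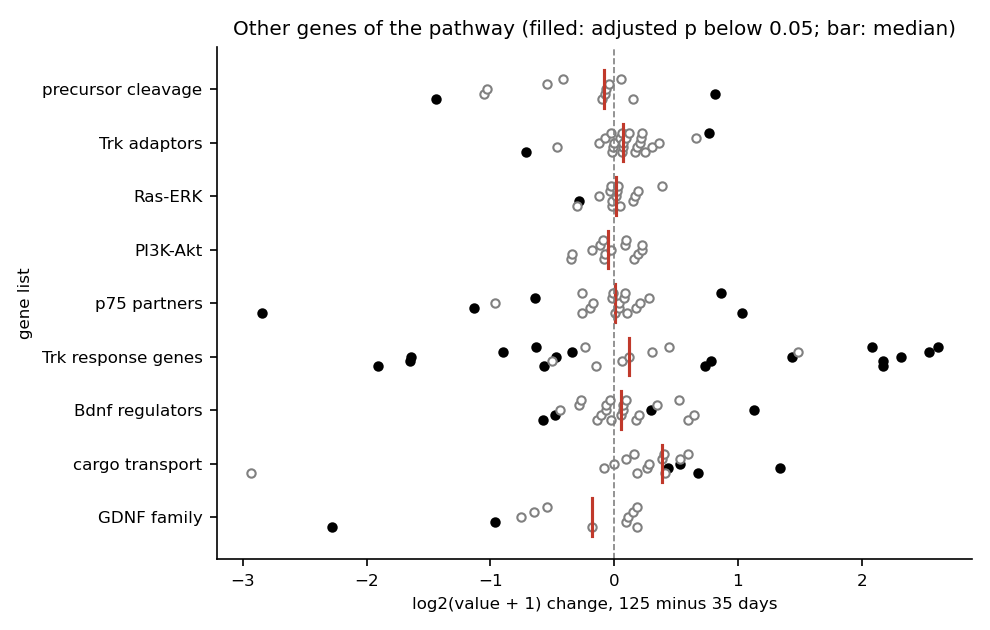
Log2(value + 1) change (horizontal axis, 125 minus 35 days) of each tested gene in the 9 lists (vertical axis, spread only for visibility). Filled points passed an adjusted p of 0.05 in limma and the red bar is the list median; 17 of 25 Trk response genes are filled, 9 to the right of 0 and 8 to the left, and none of the 14 PI3K and Akt genes.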

How the data were processed

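RNA of 8 neural lobe samples, 4 of 35 days and 4 of 125 days by the sample titles, was analysed from 1 deposited table. Its values are a depth-normalized signal that the authors made by scaling gene read counts with a size factor for each library. The values show this: in each library 100% were multiples of its lowest value above 0 (tolerance 0.001 reads), with size factors of 0.793 to 1.77. Per the submitters' processing notes, the build was rn7 and the tools, listed without role or order, were featureCounts (Subread 2.0.1), HISAT2 2.2.1, Trimmomatic 0.39, DESeq2 1.34.0 and SAMtools 1.13. Annotation and strand setting were not given in the sources used here, so reads of overlapping or antisense genes cannot be told apart. The authors' mean columns were not used.

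Genes that reached 10 in 4 or more libraries were tested on log2(value + 1) by limma 3.58.1 (R 4.3.3), using an intensity trend. Age was the only term, and this scale understates changes of low genes. Tests were two-sided, with Benjamini-Hochberg adjustment over all genes tested and a threshold of 0.05. Alternatives were other pseudocounts, filters and scalings, library weights, a fit without the trend, a replicate block, a covariate (the marker level of the anterior or of the intermediate lobe), each library left out, and DESeq2 1.42.0 and edgeR 4.0.16 run on recovered reads. The script was tested on simulated data. The 6 genes, the 12 pathway and 12 marker lists and the tests were chosen with earlier results of these data known. Named genes were the 6 genes, their family (some of its genes are not reported here), up to 3 called genes per direction with the lowest adjusted p in each list, and the 3 nearest profiles of each called member. Promoter sequences are from RefSeq. Libraries of 1 age differed by 14.4 to 249 times the variance of read sampling, so none looked like a copy. Figures were drawn with matplotlib 3.10.9.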

Additional observations from a re-analysis of the deposited data

Results flagged for a closer look

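Of 106 groups of 4 libraries screened for a library far from the others, 10 were picked out, where chance gives about 1 in 20. Sort1 at 125 days had its highest value, 8542, in replicate 2, apart from the other three (7719 to 7803). Bdnf minus Ngfr at 35 days had its lowest value, 1.48, in replicate 4. Anterior lobe markers at 125 days had their lowest level, 7.18, in replicate 2. In the lists, the lone libraries at 35 days were the highest for Serpini1 (7640), Mag (46.5) and Ndn (4665) and the lowest for Crem (1907) and Nfatc4 (368). At 125 days they were the highest for Fosb (1832) and Mag (4.89).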

How the results depend on the processing

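Bdnf and Ntrk3 kept their direction and their call in all 14 alternative fits and without each library, with log2 changes from 1.67 to 1.90 and from -1.60 to -1.17. For Ntrk2 and Sort1 the changes without 1 library ran from -1.01 to -0.67 and from 0.36 to 0.60. Sort1 missed the threshold with no filter (0.52), no trend (0.52), edgeR (0.49), total read scaling (0.46) and the anterior lobe covariate (0.28), and had 0.32 with library weights, where it passed. The intermediate lobe level did not overlap between ages, so age and that covariate cannot be told apart. In that fit Ntrk2 (-1.09) and Sort1 (0.18) missed the threshold, Ntf3 turned to 0.41, and 2 of the 6 genes and 683 of all genes (285 higher, 398 lower) were called. With it the lists gave 0 calls for cleavage, adaptors, Ras and ERK, p75 partners and Bdnf regulators, 1 for transport and for the GDNF family, and 3 for response genes. With library weights 7892 genes were called (3973 higher, 3919 lower), and 6 for cleavage, 9 adaptors, 3 Ras and ERK, 5 PI3K and Akt, 11 p75 partners, 14 regulators, 12 transport and 4 GDNF family genes. DESeq2 called 4196 of 17911 genes, more than the main fit, and gave 4 of 12 for cleavage, 8 of 23 regulators and 8 of 17 transport genes. Total read scaling gave 4 for cleavage, and moved the split of calls to 1159 higher and 1979 lower. The mean filter of 50 called 2685 of 14988 genes, and gave 3 of 20 tested p75 partners and 1 of 8 tested GDNF family genes, with Ntf3 not tested. No filter and no trend each gave 0 Ras and ERK genes and 1 GDNF family gene, and the anterior lobe covariate 0 Ras and ERK genes and 1 PI3K and Akt gene.

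Same-numbered libraries of the 2 ages had deviations correlated at 0.04, 0.17, -0.00 and -0.12 for replicates 1 to 4. Between libraries of different number the correlations ran from -0.22 to 0.22. The labels do not say whether the numbers pair the libraries, and these values cannot decide it. The replicate block gave 2718 calls, kept the calls of all 4 genes (Sort1 at limma adjusted p = 0.0455), and gave 4 for cleavage and 0 Ras and ERK genes. With it Hdac5 (limma adjusted p = 0.106) and Nras (limma adjusted p = 0.0934) missed the threshold.

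Without 1 library the calls ran from 1894 to 5495 (860 to 2846 higher, 1032 to 2649 lower), 2 to 4 of the 6 genes, 1 to 5 for cleavage, 1 to 6 adaptors, 0 to 2 Ras and ERK, 0 to 3 PI3K and Akt, 4 to 9 p75 partners, 10 to 18 response genes, 1 to 10 regulators, 2 to 9 transport and 1 to 2 GDNF family genes. The Schwann cell level difference ran from -0.11 to 0.11. Ntf4 ran from -0.13 to 0.25 and Sorcs3 from -0.15 to 0.15, and Sorcs3 was also below 0 with total read scaling (-0.029), library weights (-0.28), the anterior lobe covariate (-0.41) and the intermediate lobe covariate (-0.082). The cause of these differences was not tested. The Ntf3 values rest on at most 22 reads a library, and the part of depth in their spread was not tested.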
